A study of Homo sapiens with 35 samples.

Results

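The genes described here are a list of 47 genes that copy DNA in S phase or are known targets of the E2F transcription factors. Each was read from the transcript cluster that carries its symbol alone, and where a gene had several such clusters from the one with the highest mean over all 35 arrays. In all, 46 of the 47 listed genes had such a cluster, out of 18404 genes tested, and 1 listed gene is not analysed here. By role they were 11 genes of the replicative helicase, 6 of origin licensing, 6 of the DNA polymerases, 7 of the sliding clamp, its loader and the ligation of Okazaki fragments, 2 subunits of ribonucleotide reductase, 7 of chromatin assembly and the E2F programme, and 7 of DNA repair and the replication checkpoint.

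The RNA came from HCT116, a human colorectal carcinoma cell line, carrying an shRNA against CDK8, an shRNA against CDK19 or a non-target shRNA (shControl). CDK8 and CDK19 are paralogous kinases of the Mediator complex. Each target was represented by 1 hairpin line, so that the kinase and the line cannot be told apart. The 4 sets of cultures were measured on Affymetrix HuGene whole-transcript arrays, in 14 groups. In hypoxia (1% oxygen for 24 h) there were 2 arrays each of shCDK8, shCDK19 and shControl cells. In normal growth there were 3 arrays of each line, untreated, in McCoy's medium with fetal calf serum. In 5FU (5-fluorouracil, an inhibitor of thymidylate synthesis, for 12 h) there were 2 arrays of each line, against 2 arrays of shControl cells in the solvent DMSO. In low glucose DMEM for 24 h there were 3 arrays of each line, against 3 arrays of shControl cells in high glucose DMEM. No knockdown array in DMSO or high glucose, and no normoxic control of the hypoxia set, was analysed here. The labels do not state whether replicate arrays hold separate cultures. The p-values therefore cover the spread among arrays of a group, and this spread may be technical.

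Origins are licensed for replication in G1, when the origin recognition complex, CDC6 and CDT1 load rings of MCM proteins onto DNA. Geminin (GMNN) and the ubiquitin ligase adaptor DTL restrain CDT1 once S phase has begun. CDC45 and the GINS complex then turn the rings into the active helicase, primase and polymerase alpha lay down primers, polymerases epsilon and delta extend them, and PCNA, loaded by replication factor C, holds the polymerases on DNA. Many of these genes are transcribed together at the entry into S phase by E2F factors, and their summed RNA is commonly read as a measure of proliferation in cancer cells. The arrays were made from bulk RNA, in which fewer cells in S phase and less RNA per cell cannot be told apart.

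The members share letters in their promoters that did not enter the choice of the values. E2F-type octamers (TTTCCCGC, TTTGGCGC, TTTCGCGC or TTTGCCGC, on either strand) were searched in the RefSeq windows that span each gene's start in assembly GRCh38.p14. They were present in 23 of the 40 members with a window (57.5%), against 784 of 14230 tested genes with a window (5.51%) and 1164 of all 35116 windows (3.31%). The members were listed as replication genes and E2F targets, so this share describes the list. A gene was counted where any of its windows held a match, so shares of genes and of windows differ in unit. By role, the members with a match were 7 of 9 helicase, 4 of 6 licensing, 4 of 5 polymerase and 3 of 7 clamp and ligation members with a window. They were 0 of 2 ribonucleotide reductase, 1 of 4 chromatin and 4 of 7 repair members with a window. The pentamer CCAAT, searched on both strands, was in a window of 27 of the 40 members (67.5%). It was in a window of 6008 of the tested genes (42.2%) and in 12155 of all windows (34.6%). MCM4, MCM5, POLD3, ATAD2, E2F8 and FAM111B had no entry.

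The 160 bases before the start are given, 5′ to 3′ on the gene's strand, for 6 members on which the comparisons turn, with the E2F-type octamers in capitals. PRIM1 had the largest fall in shCDK8 cells in normal growth, GINS2 the largest rise in shCDK19 cells in low glucose, MCM6 and DTL were among the 4 that fell furthest in low against high glucose, PCNA rose with 5FU, and CDT1 did not pass in low against high glucose.
PRIM1: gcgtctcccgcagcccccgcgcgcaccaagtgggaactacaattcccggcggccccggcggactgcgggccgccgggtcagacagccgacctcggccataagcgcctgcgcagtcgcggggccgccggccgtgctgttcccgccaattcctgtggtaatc
MCM6: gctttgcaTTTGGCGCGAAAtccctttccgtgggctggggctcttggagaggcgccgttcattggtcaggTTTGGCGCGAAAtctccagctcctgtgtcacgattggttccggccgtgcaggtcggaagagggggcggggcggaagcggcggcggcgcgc
GINS2: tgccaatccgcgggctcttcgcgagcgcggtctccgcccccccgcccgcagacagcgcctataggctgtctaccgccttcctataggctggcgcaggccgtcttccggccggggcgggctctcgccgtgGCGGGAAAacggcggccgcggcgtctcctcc
CDT1: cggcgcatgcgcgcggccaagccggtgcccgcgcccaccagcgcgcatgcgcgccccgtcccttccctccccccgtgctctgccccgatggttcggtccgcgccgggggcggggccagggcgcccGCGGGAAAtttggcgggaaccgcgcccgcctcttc
DTL: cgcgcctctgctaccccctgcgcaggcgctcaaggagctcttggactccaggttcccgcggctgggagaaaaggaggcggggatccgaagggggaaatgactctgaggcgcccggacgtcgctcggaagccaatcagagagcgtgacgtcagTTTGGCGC
PCNA: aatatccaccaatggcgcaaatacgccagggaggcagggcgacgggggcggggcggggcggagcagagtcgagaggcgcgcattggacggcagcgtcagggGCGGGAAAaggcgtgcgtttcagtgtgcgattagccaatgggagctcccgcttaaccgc
The PRIM1 stretch lies at chr12:56752324-56752483 on the minus strand and holds 0 of these octamers. The MCM6 stretch, at chr2:135876444-135876603 on the minus strand, holds 4, in 2 places where TTTGGCGC overlaps a reverse-strand TTTCGCGC. GINS2 (chr16:85688955-85689114, minus strand), CDT1 (chr16:88803629-88803788, plus strand), DTL (chr1:212035588-212035747, plus strand) and PCNA (chr20:5126623-5126782, minus strand) hold 1 each. A match is a run of letters and not a measured binding site.

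The hairpins' targets were low in their own lines. The cluster that CDK8 shares with ADRA1B had log2 changes between -2.74 and -2.03 in shCDK8 against shControl cells in the 4 sets, with adjusted p between 5.31e-06 and 0.0347 in limma. CDK19 had log2 changes between -1.56 and -1.08 in shCDK19 against shControl cells, past the threshold in normal growth, 5FU and low glucose but not in hypoxia (adjusted p = 0.0948). Of the epithelial markers EPCAM lay between 10.6 and 12.4 and KRT8 between 12.8 and 13.4 (log2 signal), while of the intestinal markers CDX2 lay between 8.44 and 9.15 and CDH17 (4.64 to 5.25) and VIL1 (5.99 to 6.97) were dim on all 35 arrays. The mean of the 8 epithelial markers ranged over the arrays from 9.75 to 10.4, that of 6 fibroblast markers from 6.06 to 6.83, that of 5 leukocyte markers from 6.33 to 7.18 and that of 5 endothelial markers from 5.53 to 6.22. Within these lists the leukocyte marker PTPRC and the fibroblast markers DCN and LUM lay at or near the floor of the scale (4.32), between 4.32 and 4.62, while CD68 of the leukocyte list lay between 9.07 and 11.1 and COL1A1 of the fibroblast list between 8.25 and 9.82. Correlations of an array with the others of its group ran from 0.976 to 0.998. The 2 shControl hypoxia arrays correlated at 0.976, with means over the members of 9.24 (replicate 1) and 9.55 (replicate 2). These values do not tell which of the 2 departs. Replicate 1 had the smallest interquartile range of all arrays, 3.24 (log2), against 3.51 in replicate 2. In normal growth shCDK8 replicate 1 stood apart, with a mean over the members of 9.50 against 9.78 and 9.75. Where compared groups hold shControl hypoxia replicate 1 or shCDK8 normal growth replicate 1, counts of called members are also given without that array. Medians, changes of single members and the further gene list that comes last are given with all arrays only.

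Across the 14 groups the members moved as a body, with exceptions. The mean log2 signal over the 46 members was 9.40 in shCDK8, 9.14 in shCDK19 and 9.40 in shControl cells in hypoxia, against 9.68, 10.13 and 10.27 for the same lines in normal growth. It was 10.47 in shCDK8, 10.33 in shCDK19 and 10.49 in shControl cells with 5FU, against 10.38 in shControl cells with DMSO. It was 9.20 in shCDK8, 9.57 in shCDK19 and 9.32 in shControl cells in low glucose, against 9.98 in shControl cells in high glucose. The 5FU set, its DMSO arrays included, thus held the high end for most members. With 5FU the highest group mean fell in shCDK8 cells for 14 members, in shCDK19 cells for 5 and in shControl cells for 9. For another 10 it fell in shControl cells with DMSO, for 5 in shControl normal growth and for 3 in shControl high glucose. Hypoxia and low glucose held the low end for every member. The lowest group mean fell in shCDK19 hypoxia for 23 members, in shCDK8 low glucose for 14, in shCDK8 hypoxia for 6, in shControl hypoxia for 2 and in shControl low glucose for 1. No member touched the floor of the scale on any array. FAM111B spanned the widest range of group means, 4.30 (log2), 19.7-fold, and LIG1 the narrowest, 0.56. Levels set side by side from different sets of cultures carry the difference between the sets as well as the condition.

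**Figure D1:**
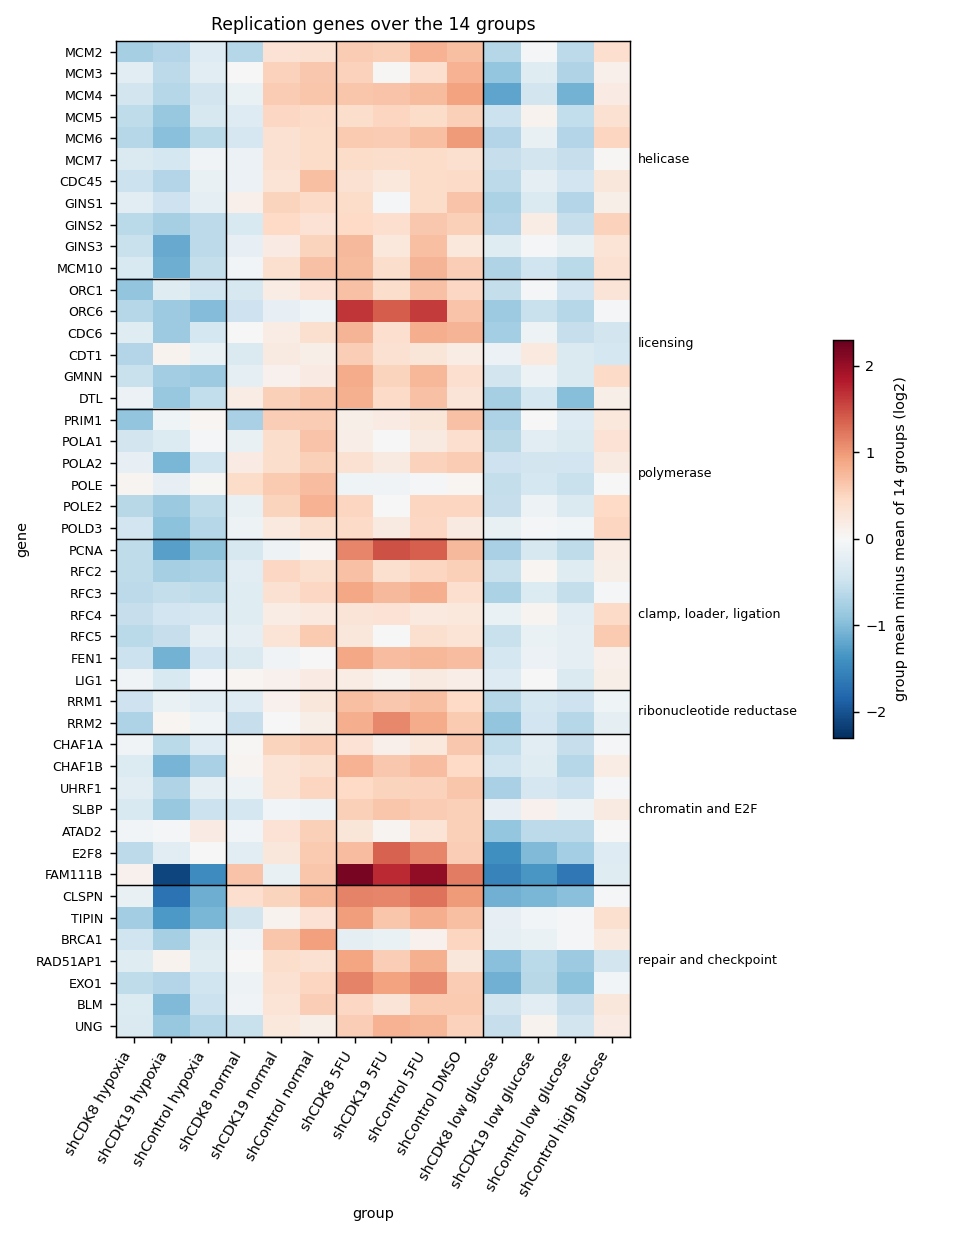
Mean log2 signal of each of the 46 members (rows, grouped by role) in each of the 14 groups (columns), minus that member's mean over the groups, on a colour scale in log2 units. Most rows are red in the 5FU and DMSO columns and mostly blue in hypoxia and low glucose. In most rows the shCDK8 normal growth column lies lower on the scale than those of shCDK19 and shControl, but in FAM111B it lies above shCDK19 (8.83 against 8.01). FAM111B holds both the deepest blue (shCDK19 hypoxia) and the deepest red (shCDK8 with 5FU).

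The helicase members include the MCM ring (MCM2 to MCM7), CDC45, the GINS subunits and MCM10, which helps to start the ring. MCM4 had the widest range among them, 2.13 (log2), and is a ring subunit. In hypoxia MCM4 had log2 signals of 10.41 and 10.31 in shCDK8, 10.21 and 10.05 in shCDK19, and 10.31 and 10.44 in shControl cells. In normal growth MCM4 had 10.56, 10.67 and 10.68 in shCDK8, 11.42, 11.40 and 11.31 in shCDK19, and 11.42, 11.46 and 11.40 in shControl cells. The 3 shCDK8 arrays of normal growth lay apart from the other 6, and all 6 hypoxic arrays lay below them. MCM4 in the 5FU set had 11.38 and 11.49 in shCDK8, 11.49 and 11.42 in shCDK19, and 11.49 and 11.55 in shControl cells with 5FU, against 11.68 and 11.75 in shControl cells with DMSO. MCM4 in the glucose set had 9.48, 9.60 and 9.66 in shCDK8, 10.39, 10.46 and 10.26 in shCDK19, and 9.68, 9.70 and 9.74 in shControl cells in low glucose, against 11.04, 10.98 and 10.94 in shControl cells in high glucose. Low glucose held the lowest MCM4 signals of the study in shCDK8 cells, and shCDK19 cells stood above shControl cells there with no overlap. MCM6, another ring subunit, had a range of 1.93, with its lowest group mean in hypoxic shCDK19 cells. In hypoxia MCM6 had log2 signals of 8.92 and 8.79 in shCDK8, 8.56 and 8.53 in shCDK19, and 8.71 and 9.06 in shControl cells. In normal growth MCM6 had 8.94, 9.25 and 9.19 in shCDK8, 9.96, 9.85 and 9.77 in shCDK19, and 9.99, 9.91 and 9.86 in shControl cells. The shCDK8 arrays lay below both other lines in normal growth, and 1 hypoxic shControl array lay above the lowest of them. MCM6 in the 5FU set had 10.06 and 10.14 in shCDK8, 10.12 and 10.08 in shCDK19, and 10.24 and 10.15 in shControl cells with 5FU, against 10.34 and 10.62 in shControl cells with DMSO. MCM6 in the glucose set had 8.78, 8.95 and 8.79 in shCDK8, 9.36, 9.42 and 9.23 in shCDK19, and 8.91, 8.78 and 8.81 in shControl cells in low glucose, against 10.02, 9.92 and 10.06 in shControl cells in high glucose. In low glucose the shCDK8 and shControl arrays of MCM6 overlapped and the shCDK19 arrays lay above them. The other 9 helicase members had ranges of group means from 0.95 (MCM7) to 1.92 (GINS3).

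Of the licensing members ORC6, a subunit of the origin recognition complex, ranged widest (2.65). In hypoxia ORC6 had log2 signals of 8.15 and 8.05 in shCDK8, 7.88 and 7.97 in shCDK19, and 7.56 and 7.95 in shControl cells. In normal growth ORC6 had 8.10, 8.36 and 8.40 in shCDK8, 8.53, 8.68 and 8.51 in shCDK19, and 8.63, 8.71 and 8.66 in shControl cells. The shCDK8 arrays lay below both other lines in normal growth, and in hypoxia the 2 shControl arrays spread widely. ORC6 in the 5FU set had 10.39 and 10.43 in shCDK8, 10.18 and 10.13 in shCDK19, and 10.43 and 10.30 in shControl cells with 5FU, against 9.29 and 9.52 in shControl cells with DMSO. ORC6 in the glucose set had 7.98, 7.91 and 7.89 in shCDK8, 8.22, 8.36 and 8.14 in shCDK19, and 8.09, 8.17 and 8.07 in shControl cells in low glucose, against 8.65, 8.73 and 8.77 in shControl cells in high glucose. All 6 arrays with 5FU lay above both DMSO arrays, which themselves lay above every array of the other 3 sets. DTL, which brings CDT1 to its ubiquitin ligase, ranged over 1.80. In hypoxia DTL had log2 signals of 11.01 and 10.98 in shCDK8, 10.34 and 10.20 in shCDK19, and 10.34 and 10.80 in shControl cells. In normal growth DTL had 11.19, 11.35 and 11.40 in shCDK8, 11.78, 11.69 and 11.61 in shCDK19, and 11.82, 11.73 and 11.78 in shControl cells. Hypoxic shCDK8 cells stood above both other hypoxic lines, the reverse of their place in normal growth. DTL in the 5FU set had 12.02 and 11.89 in shCDK8, 11.57 and 11.58 in shCDK19, and 11.84 and 11.79 in shControl cells with 5FU, against 11.36 and 11.49 in shControl cells with DMSO. DTL in the glucose set had 10.39, 10.33 and 10.38 in shCDK8, 10.59, 10.88 and 10.74 in shCDK19, and 10.14, 10.18 and 10.16 in shControl cells in low glucose, against 11.25, 11.28 and 11.26 in shControl cells in high glucose. With 5FU the shCDK19 arrays of DTL lay lowest, and in low glucose they lay highest. CDT1, the licensing factor itself, departed from both. In low glucose it had 9.80, 9.64 and 9.79 in shCDK8, 10.22, 10.15 and 9.94 in shCDK19, and 9.67, 9.50 and 9.48 in shControl cells in low glucose, against 9.55, 9.48 and 9.41 in shControl cells in high glucose. It is the 1 member whose low and high glucose arrays overlapped in shControl cells.

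Among the polymerase members POLE2, the second subunit of polymerase epsilon, had a range of 1.65 and POLA2, the accessory subunit of polymerase alpha, 1.64. In hypoxia POLE2 had log2 signals of 8.51 and 8.26 in shCDK8, 8.14 and 8.21 in shCDK19, and 8.06 and 8.81 in shControl cells. In normal growth POLE2 had 8.52, 9.02 and 9.04 in shCDK8, 9.65, 9.55 and 9.41 in shCDK19, and 9.84, 9.79 and 9.86 in shControl cells. The 2 shControl arrays in hypoxia lay below and above all 4 knockdown arrays. POLE2 in the 5FU set had 9.45 and 9.58 in shCDK8, 8.99 and 9.03 in shCDK19, and 9.63 and 9.42 in shControl cells with 5FU, against 9.51 and 9.53 in shControl cells with DMSO. POLE2 in the glucose set had 8.37, 8.65 and 8.46 in shCDK8, 8.89, 8.96 and 8.86 in shCDK19, and 8.65, 8.69 and 8.71 in shControl cells in low glucose, against 9.41, 9.48 and 9.57 in shControl cells in high glucose. In the 5FU set both shCDK19 arrays lay below the other 6. In hypoxia POLA2 had 8.63 and 8.69 in shCDK8, 7.83 and 7.76 in shCDK19, and 8.32 and 8.47 in shControl cells. In normal growth POLA2 had 8.84, 9.17 and 9.09 in shCDK8, 9.37, 9.31 and 9.09 in shCDK19, and 9.44, 9.34 and 9.39 in shControl cells. The shCDK19 arrays of POLA2 were lowest in hypoxia and the shCDK8 arrays highest, while shCDK8 and shCDK19 arrays overlapped in normal growth. POLA2 in the 5FU set had 9.09 and 9.29 in shCDK8, 9.01 and 9.10 in shCDK19, and 9.40 and 9.36 in shControl cells with 5FU, against 9.28 and 9.58 in shControl cells with DMSO. POLA2 in the glucose set had 8.41, 8.34 and 8.38 in shCDK8, 8.55, 8.42 and 8.30 in shCDK19, and 8.36, 8.39 and 8.45 in shControl cells in low glucose, against 9.07, 9.01 and 9.09 in shControl cells in high glucose. The 3 lines did not separate for POLA2 in low glucose. PRIM1, the catalytic subunit of primase, was called lower in 9 and higher in 1 of the 17 comparisons between groups. In hypoxia it had 9.26 and 9.06 in shCDK8, 10.01 and 9.91 in shCDK19, and 10.06 and 10.18 in shControl cells. In normal growth it had 9.04, 9.50 and 9.43 in shCDK8, 10.74, 10.66 and 10.53 in shCDK19, and 10.66, 10.69 and 10.62 in shControl cells. In low glucose it had 9.32, 9.45 and 9.32 in shCDK8, 10.11, 10.18 and 9.92 in shCDK19, and 9.73, 9.72 and 9.88 in shControl cells. The shCDK8 arrays of PRIM1 lay below those of both other lines in these 3 conditions. With 5FU it had 10.06 and 10.36 in shCDK8, 10.27 and 10.24 in shCDK19, and 10.45 and 10.25 in shControl cells, and the 3 lines overlapped.

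**Figure D2:**
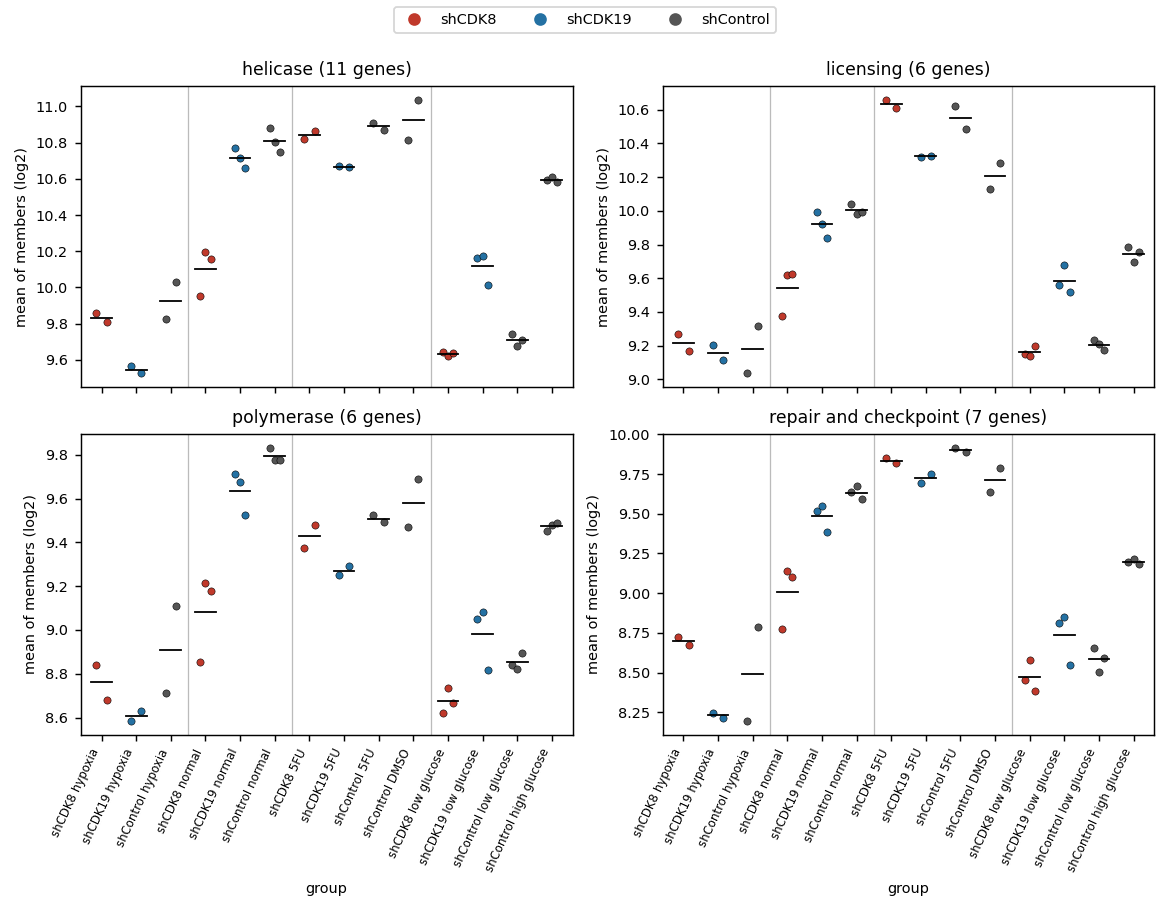
Mean log2 signal over the members of 4 role groups (1 panel each) on every array, with points coloured by line and a bar at each group's mean, and with the panels' axes cut to the range of the values. In all 4 panels the 3 shCDK8 points of normal growth lie below the 6 points of shCDK19 and shControl cells, the low glucose points lie below high glucose, and the 2 hypoxic shControl points lie far apart in the repair panel, at 8.20 and 8.79.

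PCNA, the sliding clamp, ranged over 2.71 and FEN1, the flap endonuclease of Okazaki fragment processing, over 1.98. In hypoxia PCNA had log2 signals of 9.98 and 10.05 in shCDK8, 9.43 and 9.26 in shCDK19, and 9.48 and 9.85 in shControl cells. In normal growth PCNA had 10.08, 10.36 and 10.24 in shCDK8, 10.61, 10.47 and 10.35 in shCDK19, and 10.68, 10.64 and 10.56 in shControl cells. Hypoxic shCDK8 cells lay above both other lines, and shCDK8 cells in normal growth overlapped shCDK19 cells. PCNA in the 5FU set had 11.74 and 11.67 in shCDK8, 12.08 and 12.03 in shCDK19, and 11.93 and 12.00 in shControl cells with 5FU, against 11.30 and 11.39 in shControl cells with DMSO. PCNA in the glucose set had 9.72, 9.97 and 9.85 in shCDK8, 10.32, 10.25 and 10.09 in shCDK19, and 10.01, 9.94 and 10.07 in shControl cells in low glucose, against 10.73, 10.70 and 10.88 in shControl cells in high glucose. Every 5FU array lay above both DMSO arrays, and among them the shCDK8 arrays lay lowest. In hypoxia FEN1 had 9.05 and 9.03 in shCDK8, 8.44 and 8.45 in shCDK19, and 9.06 and 9.13 in shControl cells. In normal growth FEN1 had 9.15, 9.17 and 9.28 in shCDK8, 9.44, 9.50 and 9.43 in shCDK19, and 9.52, 9.50 and 9.54 in shControl cells. In hypoxia shCDK19 cells alone were low in FEN1, with no overlap. FEN1 in the 5FU set had 10.41 and 10.44 in shCDK8, 10.17 and 10.33 in shCDK19, and 10.47 and 10.14 in shControl cells with 5FU, against 10.21 and 10.26 in shControl cells with DMSO. FEN1 in the glucose set had 9.16, 9.18 and 9.03 in shCDK8, 9.53, 9.44 and 9.22 in shCDK19, and 9.31, 9.31 and 9.34 in shControl cells in low glucose, against 9.66, 9.59 and 9.71 in shControl cells in high glucose. With 5FU both shCDK8 arrays of FEN1 lay above both shCDK19 arrays, and the shControl arrays lay below and above all 4. Replication factor C subunits RFC2 to RFC5, which load the clamp, had ranges from 0.97 (RFC4) to 1.61 (RFC3), and LIG1, which seals the fragments, varied least of the 46.

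The subunits of ribonucleotide reductase, which makes deoxynucleotides, had smaller hypoxic changes in shControl cells than most members. In hypoxia RRM2 had log2 signals of 9.90 and 9.93 in shCDK8, 10.60 and 10.76 in shCDK19, and 10.28 and 10.76 in shControl cells. In normal growth RRM2 had 9.99, 10.16 and 10.14 in shCDK8, 10.71, 10.59 and 10.52 in shCDK19, and 10.71, 10.79 and 10.76 in shControl cells. Hypoxic and normal arrays of RRM2 overlapped in shCDK19 and in shControl cells. RRM2 in the 5FU set had 11.49 and 11.42 in shCDK8, 11.83 and 11.62 in shCDK19, and 11.50 and 11.47 in shControl cells with 5FU, against 11.19 and 11.27 in shControl cells with DMSO. RRM2 in the glucose set had 9.52, 9.83 and 9.81 in shCDK8, 10.28, 10.13 and 10.17 in shCDK19, and 10.07, 9.84 and 10.01 in shControl cells in low glucose, against 10.28, 10.45 and 10.47 in shControl cells in high glucose. The 5FU and DMSO arrays of RRM2 were the highest of the study. In hypoxia RRM1 had 10.31 and 10.19 in shCDK8, 10.58 and 10.56 in shCDK19, and 10.27 and 10.70 in shControl cells. In normal growth RRM1 had 10.17, 10.53 and 10.58 in shCDK8, 10.86, 10.81 and 10.79 in shCDK19, and 10.98, 10.97 and 11.03 in shControl cells. For both subunits the shCDK8 arrays of normal growth lay below those of the other lines. RRM1 in the 5FU set had 11.35 and 11.48 in shCDK8, 11.35 and 11.32 in shCDK19, and 11.42 and 11.40 in shControl cells with 5FU, against 11.05 and 11.30 in shControl cells with DMSO. RRM1 in the glucose set had 9.93, 10.18 and 10.10 in shCDK8, 10.28, 10.37 and 10.33 in shCDK19, and 10.19, 10.21 and 10.34 in shControl cells in low glucose, against 10.63, 10.66 and 10.61 in shControl cells in high glucose. All low glucose arrays of RRM1 lay below all high glucose arrays.

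FAM111B, a protease-like protein made in S phase, and E2F8, an atypical E2F that represses transcription, ranged widest in the chromatin and E2F group, over 4.30 and 2.76. In hypoxia FAM111B had log2 signals of 8.42 and 8.13 in shCDK8, 6.09 and 6.04 in shCDK19, and 6.28 and 7.19 in shControl cells. In normal growth FAM111B had 8.45, 9.08 and 8.97 in shCDK8, 8.09, 8.16 and 7.79 in shCDK19, and 8.77, 8.80 and 8.88 in shControl cells. The hypoxic shCDK8 arrays lay below those of shCDK8 cells in normal growth and above those of both other hypoxic lines. FAM111B in the 5FU set had 10.46 and 10.27 in shCDK8, 9.92 and 9.85 in shCDK19, and 10.27 and 10.17 in shControl cells with 5FU, against 9.17 and 9.55 in shControl cells with DMSO. FAM111B in the glucose set had 6.49, 6.83 and 6.57 in shCDK8, 6.92, 6.98 and 6.61 in shCDK19, and 6.45, 6.52 and 6.65 in shControl cells in low glucose, against 7.90, 7.93 and 7.83 in shControl cells in high glucose. Each condition moved FAM111B further than it moved most members, up with 5FU and down in low glucose. In hypoxia E2F8 had 8.88 and 8.61 in shCDK8, 9.14 and 9.04 in shCDK19, and 9.27 and 9.44 in shControl cells. In normal growth E2F8 had 8.96, 9.18 and 9.16 in shCDK8, 9.68, 9.66 and 9.49 in shCDK19, and 9.92, 9.95 and 10.02 in shControl cells. In both sets the shCDK8 arrays of E2F8 lay below shCDK19 and these below shControl. E2F8 in the 5FU set had 10.18 and 9.96 in shCDK8, 10.78 and 10.62 in shCDK19, and 10.47 and 10.48 in shControl cells with 5FU, against 9.76 and 10.09 in shControl cells with DMSO. E2F8 in the glucose set had 7.81, 8.09 and 7.93 in shCDK8, 8.38, 8.47 and 8.15 in shCDK19, and 8.60, 8.47 and 8.61 in shControl cells in low glucose, against 9.20, 9.0 and 8.96 in shControl cells in high glucose. With 5FU and in low glucose as well, the shCDK8 arrays of E2F8 lay below the shControl arrays of the same condition. They did not lie below the shControl arrays with DMSO. The remaining members of the group, the histone chaperone subunits CHAF1A and CHAF1B, the DNA methylation factor UHRF1, the histone mRNA binding protein SLBP and the chromatin ATPase ATAD2, had ranges from 1.23 (CHAF1A) to 1.88 (CHAF1B).

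CLSPN, the claspin adaptor of the checkpoint kinase CHK1, and TIPIN, which with its partner timeless protects the fork, ranged widest among the repair and checkpoint members, over 2.94 and 2.28. In hypoxia CLSPN had log2 signals of 8.27 and 8.17 in shCDK8, 6.71 and 6.67 in shCDK19, and 6.96 and 7.57 in shControl cells. In normal growth CLSPN had 8.35, 8.99 and 9.02 in shCDK8, 8.93, 9.01 and 8.76 in shCDK19, and 9.21, 9.27 and 8.99 in shControl cells. As with FAM111B, hypoxic shCDK8 cells stood above both other hypoxic lines. CLSPN in the 5FU set had 9.60 and 9.47 in shCDK8, 9.41 and 9.64 in shCDK19, and 9.62 and 9.65 in shControl cells with 5FU, against 9.25 and 9.47 in shControl cells with DMSO. CLSPN in the glucose set had 7.36, 7.46 and 7.06 in shCDK8, 7.48, 7.55 and 6.99 in shCDK19, and 7.65, 7.23 and 7.43 in shControl cells in low glucose, against 8.45, 8.33 and 8.24 in shControl cells in high glucose. The 3 lines overlapped for CLSPN in low glucose, all of them below high glucose. In hypoxia TIPIN had 9.0 and 8.69 in shCDK8, 8.33 and 8.32 in shCDK19, and 8.53 and 8.69 in shControl cells. In normal growth TIPIN had 8.98, 9.41 and 9.28 in shCDK8, 9.73, 9.72 and 9.74 in shCDK19, and 9.97, 10.05 and 9.93 in shControl cells. Of the 6 hypoxic arrays of TIPIN, 1 shCDK8 array reached above the lowest array of its own line in normal growth, and the other 5 did not. TIPIN in the 5FU set had 10.67 and 10.55 in shCDK8, 10.32 and 10.27 in shCDK19, and 10.55 and 10.43 in shControl cells with 5FU, against 10.43 and 10.25 in shControl cells with DMSO. TIPIN in the glucose set had 9.35, 9.61 and 9.42 in shCDK8, 9.68, 9.59 and 9.47 in shCDK19, and 9.74, 9.52 and 9.60 in shControl cells in low glucose, against 10.08, 10.01 and 9.99 in shControl cells in high glucose. TIPIN was called in 6 of the 17 comparisons between groups, each time lower. The exonuclease EXO1 had a range of 2.25, the recombination factor RAD51AP1 of 1.87, BRCA1, which acts in homologous recombination, of 1.70, the uracil glycosylase UNG of 1.66 and the helicase BLM of 1.62. RAD51AP1 had 7.47 and 8.94 on the 2 hypoxic shControl arrays.

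**Figure D3:**
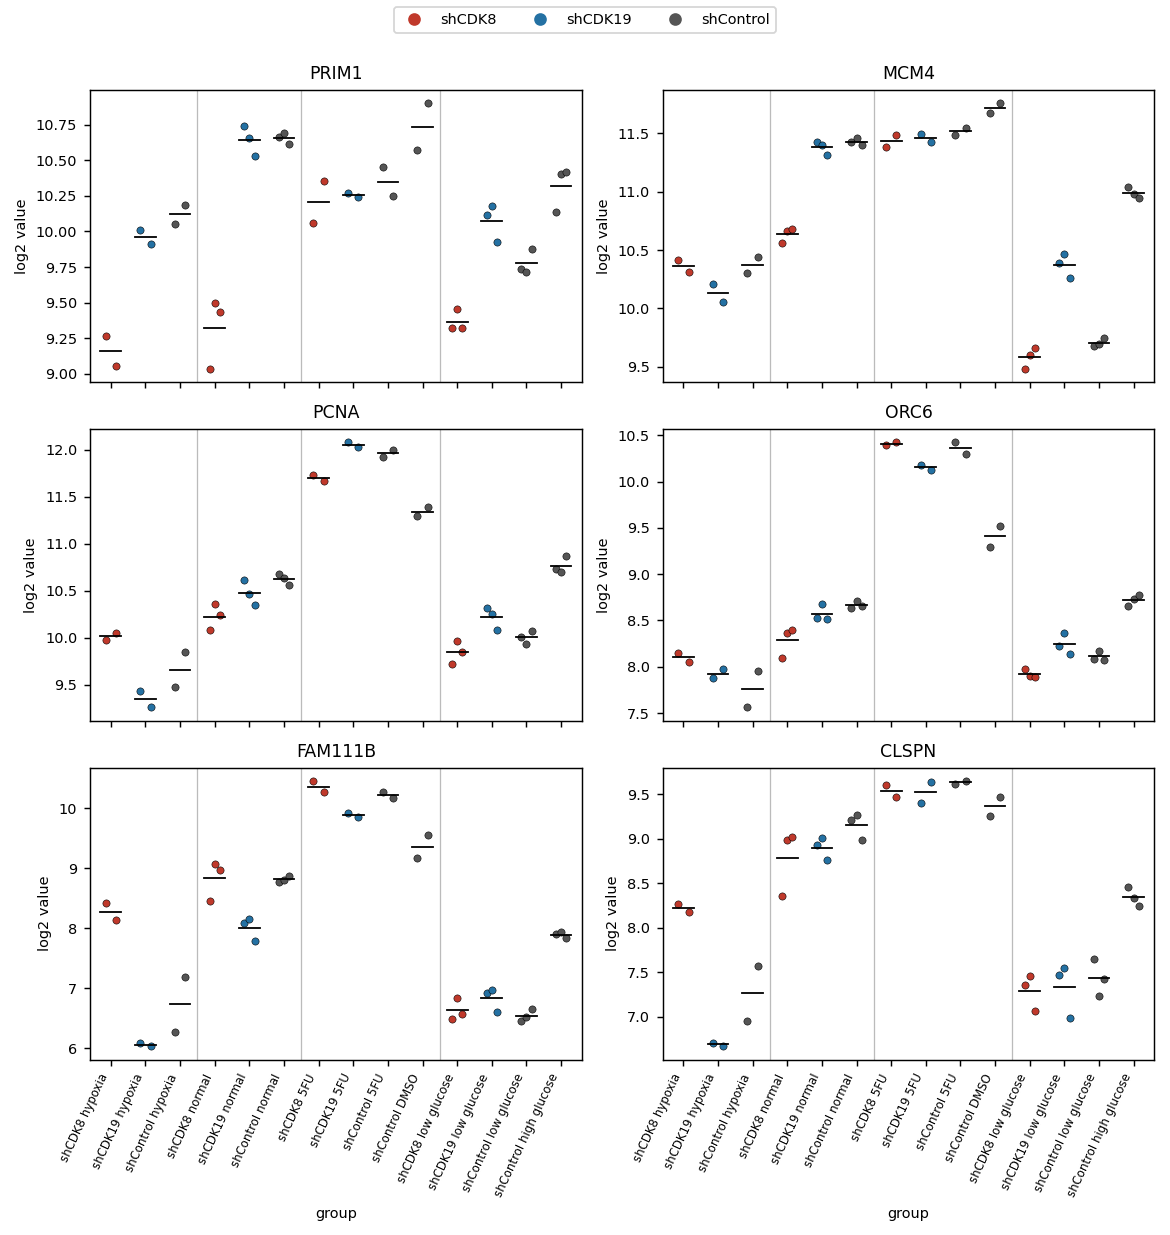
Log2 signal of PRIM1, MCM4, PCNA, ORC6, FAM111B and CLSPN (1 panel each) on every array by group, with points coloured by line and a bar at each group's mean. PRIM1 is low in shCDK8 cells in hypoxia, normal growth and low glucose but not with 5FU, and FAM111B and CLSPN are high in hypoxic shCDK8 cells, at 8.42 and 8.13 and at 8.27 and 8.17.

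In normal growth nearly the whole list was lower in shCDK8 cells. Of the 46 members, 41 fell and 0 rose in shCDK8 against shControl cells (adjusted p under 0.05 in limma's moderated test, by Benjamini-Hochberg over all 18404 genes, as in each comparison between groups), where 13.5% of all genes fell and 11.4% rose. The median log2 change of the members was -0.60, and that of all genes -0.02. PRIM1 fell furthest, 2.52-fold, with a log2 change of -1.34 ± 0.12 (SE, adjusted p = 0.000172). BRCA1 had log2 signals of 8.08, 8.27 and 8.37 in shCDK8, and 9.24, 9.26 and 9.30 in shControl cells, a change of -1.03 ± 0.08 (SE, adjusted p = 9.1e-05). MCM2, a subunit of the MCM ring, had 9.62, 9.88 and 9.76 in shCDK8, and 10.92, 10.81 and 10.54 in shControl cells, a change of -1.0 ± 0.11 (SE, adjusted p = 0.000491). POLE2 changed by -0.97 ± 0.14 (SE, adjusted p = 0.00167). None of the arrays of the 2 lines overlapped for these 4 genes. By role, 10 of 11 helicase members fell (median -0.74), 6 of 6 licensing members (-0.43), 6 of 6 polymerase members (-0.66), 6 of 7 clamp and ligation members (-0.51), both reductase subunits (-0.61), 6 of 7 chromatin members (-0.56) and 5 of 7 repair members (-0.64). FAM111B, with a change of 0.02 ± 0.17 (SE, adjusted p = 0.984), CLSPN (-0.37 ± 0.18, adjusted p = 0.202), RAD51AP1 (-0.35 ± 0.13, adjusted p = 0.0991), GINS1 (-0.32 ± 0.11, adjusted p = 0.0783) and LIG1 (-0.15 ± 0.07, adjusted p = 0.199) did not pass. Leaving out each array in turn left between 34 and 41 members lower, and without shCDK8 replicate 1, the array that stands apart, 40.

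In shCDK19 cells in normal growth 4 members were called, all lower than in shControl cells, against 3.4% of all genes lower and 3.67% higher, and the members' median was -0.11 (log2). FAM111B had log2 signals of 8.09, 8.16 and 7.79 in shCDK19, and 8.77, 8.80 and 8.88 in shControl cells, a change of -0.81 ± 0.17 (SE, adjusted p = 0.0274). E2F8 changed by -0.35 ± 0.07 (SE, adjusted p = 0.031), GINS3, a subunit of GINS, by -0.34 ± 0.08 (SE, adjusted p = 0.0379) and the clamp loader subunit RFC5 by -0.28 ± 0.05 (SE, adjusted p = 0.0197). These 4 genes come from the chromatin, helicase and clamp groups, and 0 licensing, polymerase, reductase or repair members passed. At an unadjusted p under 0.05 there were 12 of the 46, and the share of all genes at that looser threshold is not given here. The count rests on single arrays, since 1 member passed without shCDK19 replicate 1 and 0 without any 1 of the other 5 arrays. Set against each other, the lines differed in 39 members, with 38 lower and 1 higher in the shCDK8 line (13.2% and 12.9% of all genes), with a median of -0.45. PRIM1 (-1.32 ± 0.12, adjusted p = 0.000196), MCM2 (-0.99 ± 0.11, adjusted p = 0.000541), GINS2 (-0.82 ± 0.09, adjusted p = 0.000538) and MCM5 (-0.77 ± 0.05, adjusted p = 6.25e-05) were furthest below. All 11 helicase members passed. Without shCDK8 replicate 1, 37 members were lower and 1 higher in the shCDK8 line. FAM111B was the member that stood higher in shCDK8 cells, by 0.82 ± 0.17 (SE, adjusted p = 0.0086), with 8.45, 9.08 and 8.97 in shCDK8, and 8.09, 8.16 and 7.79 in shCDK19 cells. These 3 comparisons share their arrays.

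With 5FU neither knockdown called a member against shControl cells. In shCDK8 cells 0 of 46 passed, where 1.59% of all genes rose and 1.91% fell, and the members' median was -0.03 (log2). The smallest adjusted p-values belonged to UNG, with 10.65 and 10.65 in shCDK8, and 10.86 and 10.84 in shControl cells and a change of -0.20 ± 0.04 (SE, adjusted p = 0.0808), and to CDT1, with 10.44 and 10.46 in shCDK8, and 10.24 and 10.08 in shControl cells and a change of 0.29 ± 0.07 (SE, adjusted p = 0.0867). In shCDK19 cells 0 of 46 passed, where 0.576% of all genes rose and 0.261% fell, 16 had an unadjusted p under 0.05, and the median was -0.18. GINS1, a GINS subunit, had 9.90 and 9.84 in shCDK19, and 10.39 and 10.30 in shControl cells, a change of -0.48 ± 0.08 (SE, adjusted p = 0.0662), and POLE2 changed by -0.51 ± 0.09 (SE, adjusted p = 0.0706). For GINS1 and POLE2 both shCDK19 arrays lay below both shControl arrays. The 2 genes were picked by the smallest p, so this separation adds no support of its own. Each group holds 2 arrays, so these results do not show that the lines are alike. The unmoderated analysis of variance, which the design text names, called 1 member in shCDK8 and 0 in shCDK19 cells.

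Between the knockdown lines with 5FU, 5 members stood above and 1 below shCDK19 cells in shCDK8 cells, where 2.22% of all genes were higher and 2.92% lower, with a median of 0.16 (log2). POLE2 was higher by 0.51 ± 0.09 (SE, adjusted p = 0.034), MCM3 by 0.50 ± 0.07 (SE, adjusted p = 0.0213), GINS1 by 0.47 ± 0.08 (SE, adjusted p = 0.032) and CDC6, the loader of the MCM ring, by 0.41 ± 0.08 (SE, adjusted p = 0.0498). PCNA was lower, by -0.35 ± 0.06 (SE, adjusted p = 0.0359). MCM3 had log2 signals of 11.36 and 11.38 in shCDK8, 10.90 and 10.83 in shCDK19, and 11.26 and 11.19 in shControl cells, and CDC6 had 11.80 and 11.64 in shCDK8, 11.30 and 11.33 in shCDK19, and 11.82 and 11.71 in shControl cells. For both genes the shCDK19 arrays lay below those of the other lines. Without any 1 of the 4 arrays 0 members passed, and quantile normalization called 8 higher and 3 lower.

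In low glucose the knockdown lines parted. Against shControl cells shCDK19 cells held 21 members higher and 0 lower, where 9.11% of all genes were higher and 10.8% lower, with a median of 0.22 (log2). GINS2, a GINS subunit, rose by 0.69 ± 0.07 (SE, adjusted p = 8.76e-05) and had log2 signals of 11.44, 11.46 and 11.41 in shCDK19, and 10.83, 10.68 and 10.72 in shControl cells. MCM4 rose by 0.67 ± 0.06 (SE, adjusted p = 5.52e-05), MCM5, another ring subunit, by 0.65 ± 0.06 (SE, adjusted p = 7.02e-05) and DTL by 0.58 ± 0.06 (SE, adjusted p = 0.000127). For all 4 genes every shCDK19 array lay above every shControl array. Among the helicase members 7 of 11 were higher (median 0.42) and among the licensing members 4 of 6 (0.40), while 1 of 6 polymerase members (0.10) and 0 of 2 reductase subunits passed. The clamp, chromatin and repair groups held 3 higher members each. Leaving out each array in turn gave between 17 and 27 higher and 0 lower.

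In shCDK8 cells in low glucose 2 members were higher and 8 lower than in shControl cells, where 12.1% of all genes were higher and 10.2% lower, and the median was -0.13 (log2). E2F8 fell by 0.62 ± 0.10 (SE, adjusted p = 0.00142), PRIM1 by 0.41 ± 0.09 (adjusted p = 0.00855), RFC5 by 0.29 ± 0.05 (adjusted p = 0.00331) and ATAD2 by 0.28 ± 0.05 (adjusted p = 0.00322). DTL rose by 0.21 ± 0.06 (SE, adjusted p = 0.0321) and CHAF1B by 0.21 ± 0.07 (SE, adjusted p = 0.047). No helicase member passed, and 0 of the 7 repair members. Subtracting array medians left 0 higher and 6 lower, and 6 members, all lower, passed without any 1 of the 3 shControl arrays or without shCDK8 replicate 3. Between the knockdown lines 35 members were lower and 0 higher in the shCDK8 line (11.2% and 14.7% of all genes), with a median of -0.35. GINS2 (-0.85 ± 0.07, adjusted p = 1.31e-05), MCM4 (-0.79 ± 0.06, adjusted p = 1.02e-05), PRIM1 (-0.71 ± 0.09, adjusted p = 0.000299) and CDC6 (-0.66 ± 0.05, adjusted p = 7.87e-06) were furthest below. CDC6 had 10.12, 10.12 and 10.21 in shCDK8, 10.76, 10.90 and 10.78 in shCDK19, and 10.45, 10.39 and 10.38 in shControl cells. Its 3 lines stood in separate bands, shCDK8 below shControl and shControl below shCDK19. All 6 licensing and all 7 clamp and ligation members passed, and 3 of 6 polymerase members.

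In hypoxia shCDK8 cells held 2 members lower and 0 higher than shControl cells, where 2.49% of all genes were lower and 4.81% higher, and the median was -0.02 (log2). PRIM1 changed by -0.96 ± 0.11 (SE, adjusted p = 0.0178), 1.94-fold lower, and MCM2, with 9.62 and 9.68 in shCDK8, and 10.09 and 10.13 in shControl cells, by -0.46 ± 0.08 (SE, adjusted p = 0.0416). FAM111B (1.54 ± 0.32, adjusted p = 0.0592) and CLSPN (0.96 ± 0.21, adjusted p = 0.0697) had larger changes that did not pass. In shCDK19 cells 0 of 46 passed, where 0.196% of all genes were higher and 0.0326% lower in limma, with a members' median of -0.30 (log2). At an unadjusted p under 0.05 there were 15 members, and the share of all genes at that looser threshold is not given here. FEN1 (-0.65 ± 0.07, adjusted p = 0.0814) and POLA2 (-0.60 ± 0.09, adjusted p = 0.119) had the smallest p-values. These counts turn on single arrays. In shCDK8 cells 7 members passed without shControl replicate 1 (2 higher, 5 lower), 16 without shControl replicate 2 (11 higher, 5 lower) and 0 without either shCDK8 array. In shCDK19 cells 9 passed without shControl replicate 2 (1 higher, 8 lower) and 0 without any 1 of the other 3. A single fit over all 35 arrays, which borrows the spread of the other sets, called 8 higher and 12 lower members in shCDK8 cells and 21 lower members in shCDK19 cells. The shares of all genes above belong to the fit within the hypoxia set. Those of the single fit are not given here, so its counts cannot be set against them. Subtracting array medians called 2 higher and 1 lower in shCDK8 cells, and quantile normalization 0 higher and 6 lower.

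Between the hypoxic knockdown lines, which leaves out the shControl values but not their part in the spread, 8 members stood above and 3 below shCDK19 cells in shCDK8 cells, where 7.26% of all genes were higher and 5.09% lower, with a median of 0.26 (log2). FAM111B was 4.64-fold higher, with a change of 2.21 ± 0.32 (SE, adjusted p = 0.0202). CLSPN was higher by 1.53 ± 0.21 (SE, adjusted p = 0.0196), POLA2 by 0.86 ± 0.09 (SE, adjusted p = 0.0121) and MCM10 by 0.78 ± 0.13 (SE, adjusted p = 0.0293). MCM10 had log2 signals of 9.49 and 9.50 in shCDK8, and 8.67 and 8.75 in shCDK19 cells. PRIM1 (-0.80 ± 0.11, adjusted p = 0.0192), CDT1 (-0.76 ± 0.12, adjusted p = 0.0247) and ORC1, the largest subunit of the origin recognition complex (-0.63 ± 0.10, adjusted p = 0.0259), were lower. CDT1 had 9.16 and 9.26 in shCDK8, and 9.99 and 9.94 in shCDK19 cells, and ORC1 had 8.02 and 7.87 in shCDK8, and 8.61 and 8.53 in shCDK19 cells. By role, 2 of 6 licensing members were called lower and 0 higher, although the median change of that group was 0.23 (log2). Called higher were 3 of 7 chromatin, 2 of 11 helicase, 1 of 7 clamp and ligation and 1 of 7 repair members. The polymerase group held 1 in each direction. Without any 1 of the 4 arrays 0 members passed.

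In shControl cells in low glucose 43 of 46 fell and 0 rose against high glucose, where 17.3% of all genes fell and 13.9% rose, and the members' median was -0.64 (log2). FAM111B (-1.35 ± 0.11, adjusted p = 1.06e-05), MCM4 (-1.28 ± 0.06, adjusted p = 4.99e-07), MCM6 (-1.16 ± 0.07, adjusted p = 1.16e-06) and DTL (-1.11 ± 0.06, adjusted p = 9.44e-07) fell furthest, between 2.16-fold and 2.55-fold. All 11 helicase members fell (median -0.92), with all members of the polymerase (-0.61), clamp (-0.50), reductase (-0.41) and chromatin (-0.49) groups. The exceptions were CDT1 (0.07 ± 0.08, adjusted p = 0.578), CDC6 (-0.10 ± 0.05, adjusted p = 0.156) and BRCA1 (-0.28 ± 0.11, adjusted p = 0.0949). CDC6 had log2 signals of 10.45, 10.39 and 10.38 in low and 10.56, 10.46 and 10.50 in high glucose. Of the genes that load the MCM ring, CDC6 and CDT1 thus did not pass, while the origin recognition subunits ORC1 and ORC6 fell, as did the ring's own subunits. Leaving out each array in turn left 42 or 43 members lower.

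With 5FU 8 members rose and 1 fell against DMSO in shControl cells, where 7.17% of all genes rose and 4.29% fell, with a median of 0.06 (log2). ORC6 rose 1.94-fold, by 0.96 ± 0.09 (SE, adjusted p = 0.00565), FAM111B by 0.86 ± 0.14 (SE, adjusted p = 0.0185), PCNA by 0.62 ± 0.06 (SE, adjusted p = 0.00598) and EXO1 by 0.51 ± 0.09 (SE, adjusted p = 0.0269). MCM3 fell, with 11.26 and 11.19 with 5FU and 11.57 and 11.72 with DMSO, a change of -0.41 ± 0.07 (SE, adjusted p = 0.0207). Risers were found among licensing (3 of 6), clamp (2 of 7), repair (2 of 7) and chromatin members (1 of 7), and 0 among the 11 helicase and 6 polymerase members. The count depends on single arrays, since 1 member passed without either 5FU array, 16 rose and 1 fell when DMSO replicate 2 was left out, and 5 rose and 5 fell when DMSO replicate 1 was. Quantile normalization called 9 higher and 6 lower, and subtracting array medians 10 higher and 0 lower.

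Hypoxic shControl cells held 45 members lower and 0 higher than shControl cells in normal growth, where 26.7% of all genes were lower and 21.1% higher, with a median of -0.86 (log2). Here condition and set of cultures cannot be told apart. FAM111B (-2.08 ± 0.19, adjusted p = 8.75e-09) was 4.24-fold lower, CLSPN (-1.89 ± 0.19, adjusted p = 3.29e-08) 3.71-fold, POLE2 (-1.39 ± 0.15, adjusted p = 8.56e-08) 2.63-fold and TIPIN (-1.37 ± 0.10, adjusted p = 3.78e-10) 2.59-fold. Repair members had the lowest median (-1.07) and the reductase subunits the one nearest 0 (-0.37), and RRM2 (-0.23 ± 0.11, adjusted p = 0.0866) was the member that did not pass. In shCDK19 cells 42 were lower and 0 higher (20.2% and 11.1% of all genes), with a median of -1.01. CLSPN (-2.21 ± 0.19, adjusted p = 1.7e-09), FAM111B (-1.95 ± 0.19, adjusted p = 1.71e-08), MCM10 (-1.50 ± 0.09, adjusted p = 4.16e-12) and POLA2 (-1.46 ± 0.10, adjusted p = 1.62e-11) led, and RRM1, RRM2, CDT1 and RAD51AP1 did not pass. In shCDK8 cells 17 were lower and 0 higher (5.57% and 3.52% of all genes), with a median of -0.28. Most members were already lower in shCDK8 than in shControl cells in normal growth, and whether this bears on the smaller change was not tested. ORC1 (-0.54 ± 0.10, adjusted p = 0.00076), POLE2 (-0.48 ± 0.15, adjusted p = 0.0463), EXO1 (-0.47 ± 0.10, adjusted p = 0.00234) and RFC5 (-0.39 ± 0.08, adjusted p = 0.00219) led. Without shControl hypoxia replicate 1 39 members were lower in shControl cells in this comparison of hypoxia with normal growth. The shCDK8 count was 28 without normal growth replicate 1, 9 without normal growth replicate 2, 10 without normal growth replicate 3 or hypoxia replicate 1, and 4 without hypoxia replicate 2. The shCDK19 count was 42 without any 1 of its 5 arrays.

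**Figure D4:**
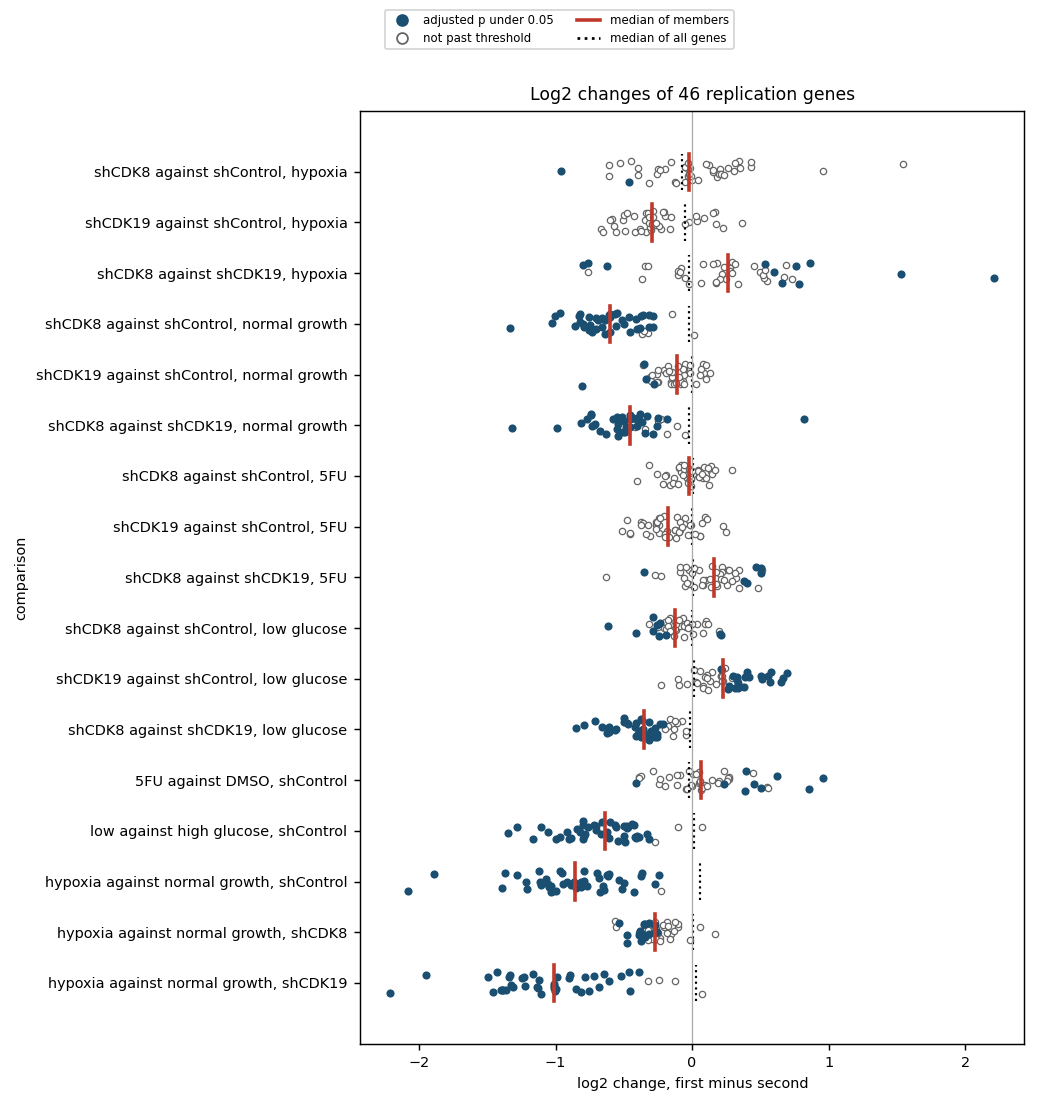
Log2 change of each of the 46 members (1 point each, filled where the adjusted p was under 0.05) in the 17 comparisons between groups, first group minus second, with a red bar at the members' median and a dotted bar at the median of all 18404 genes. Of shCDK8 against shControl cells, 45 of 46 points lie left of 0 in normal growth (median -0.60) and 29 with 5FU (median -0.03), 42 points of shCDK19 against shControl cells lie right of 0 in low glucose (0.22), and in shControl cells 45 points lie left of 0 in low glucose (-0.64) and 46 in hypoxia (-0.86).

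Whether a knockdown's change differed between a stress and normal growth was tested as a difference of the 2 changes in 1 fit of all 35 arrays. All 6 of these differences subtract a normal growth change, the 3 of shCDK8 the same 1 and the 3 of shCDK19 the same 1, and they carry the difference between the sets of cultures. For shCDK8, 32 members had a higher change with 5FU than in normal growth and 0 a lower one, where 6.25% of all genes were higher and 5.62% lower, with a median difference of 0.58 (log2). PRIM1 differed by 1.19 ± 0.18 (SE, adjusted p = 3.8e-05), POLE2 by 0.96 ± 0.21 (SE, adjusted p = 0.00274), TIPIN by 0.88 ± 0.15 (SE, adjusted p = 0.000181) and RFC3, a clamp loader subunit, by 0.80 ± 0.15 (SE, adjusted p = 0.000473). In low glucose 28 were higher and 0 lower (7.78% and 5.06% of all genes), with a median of 0.52. MCM2 (0.97 ± 0.12, adjusted p = 2.23e-06), PRIM1 (0.93 ± 0.16, adjusted p = 0.000192), BRCA1 (0.86 ± 0.16, adjusted p = 0.000596) and MCM5 (0.83 ± 0.09, adjusted p = 4.97e-07) led. In hypoxia 34 were higher and 0 lower (9.06% and 2.45% of all genes), with a median of 0.60. FAM111B (1.53 ± 0.27, adjusted p = 0.000697), CLSPN (1.33 ± 0.27, adjusted p = 0.00211), TIPIN (0.99 ± 0.15, adjusted p = 0.000113) and UNG (0.96 ± 0.15, adjusted p = 0.000272) led. For these members the shCDK8 change was thus lower in normal growth than in the stress. Without shCDK8 normal growth replicate 1, 28 members passed with 5FU, 25 in low glucose and 28 in hypoxia, all higher. PRIM1 did not pass in hypoxia (0.38 ± 0.18, adjusted p = 0.173).

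For shCDK19, 1 member was higher and 1 lower with 5FU than in normal growth (2.18% and 1.81% of all genes), E2F8 by 0.58 ± 0.16 (SE, adjusted p = 0.0441) and GINS1 by -0.55 ± 0.13 (SE, adjusted p = 0.0133). In low glucose 19 were higher and 0 lower (0.989% and 0.799% of all genes), with a median of 0.36 (log2). FAM111B (1.10 ± 0.24, adjusted p = 0.0153), MCM4 (0.72 ± 0.08, adjusted p = 1.03e-05), DTL (0.66 ± 0.12, adjusted p = 0.00205) and MCM5 (0.62 ± 0.09, adjusted p = 0.000193) led, and 9 of the 11 helicase members and 4 of 6 licensing members were among the 19, against 0 of 6 polymerase members. In hypoxia 0 were higher and 2 lower (1.52% and 0.56% of all genes), FEN1 by -0.59 ± 0.11 (SE, adjusted p = 0.00668) and MCM5 by -0.52 ± 0.10 (SE, adjusted p = 0.00752), and with array medians subtracted neither passed. The loss of 1 array moved several of these counts. Without shControl hypoxia replicate 1, 21 members passed for shCDK8 in hypoxia, against 34 with it, and 4 lower ones for shCDK19. Without shControl hypoxia replicate 2, 4 higher and 2 lower members passed for shCDK19 in hypoxia, and without shCDK19 hypoxia replicate 2, 1 lower. For shCDK19 in low glucose 7 passed without shCDK19 normal growth replicate 3, 9 without shControl normal growth replicate 1 or without shCDK19 low glucose replicate 1 or 2, 10 without shControl low glucose replicate 2, and 12 without shControl low glucose replicate 3 or shControl normal growth replicate 2. Subtracting array medians left 4 higher for shCDK19 in low glucose. For shCDK19 with 5FU 1 or 0 members passed without any 1 array.

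**Figure D5:**
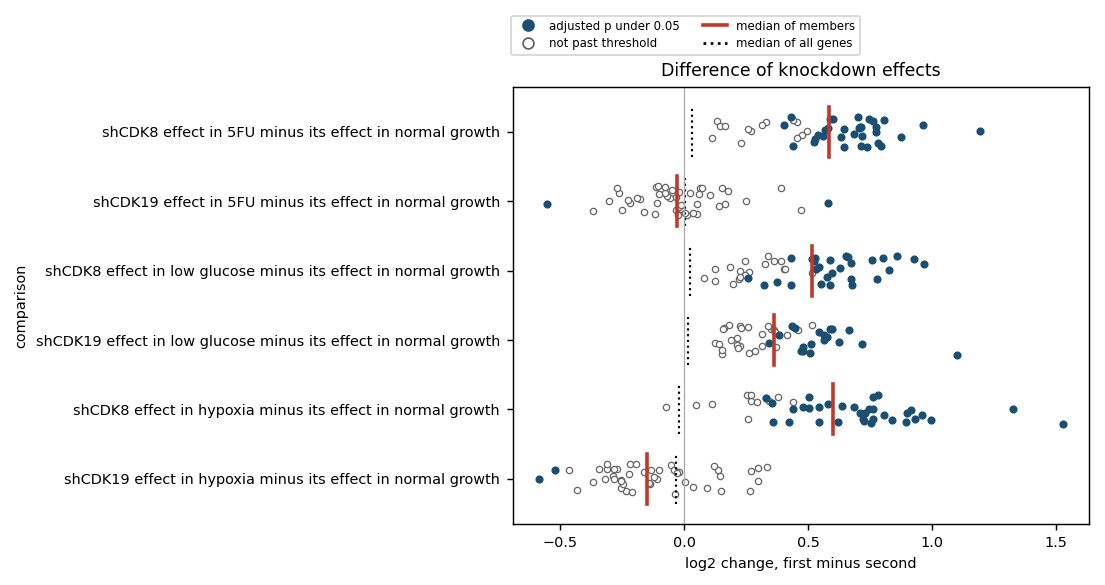
Difference of each member's knockdown change between a stress and normal growth (log2, 1 point per member, filled where the adjusted p was under 0.05), for shCDK8 and shCDK19 in 5FU, low glucose and hypoxia, with a red bar at the members' median and a dotted bar at that of all genes. For shCDK8 all 46 points lie right of 0 with 5FU and in low glucose (medians 0.58 and 0.52) and 45 in hypoxia (0.60), and for shCDK19 all 46 lie right of 0 in low glucose (0.36).

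A further list of 50 replication and E2F genes outside the 47, of which 46 were measured, was read from the same fits. In shCDK8 against shControl cells in normal growth 30 fell and 0 rose (13.5% and 11.4% of all genes), with RBL1, the pocket protein p107, at -0.88 ± 0.17 and the thymidine kinase TK1 at -0.82 ± 0.11 (log2 change ± SE). In shCDK19 against shControl cells in low glucose 8 rose and 3 fell (9.11% and 10.8% of all genes), with the origin recognition subunit ORC3 at 0.43 ± 0.04 and the cyclin CCNE2, which drives entry into S phase, at 0.38 ± 0.11. For shCDK8 against shControl cells in low glucose 6 were higher and 9 lower (12.1% and 10.2% of all genes). CCNE1 stood there at 0.59 ± 0.055 and CCNE2 at 0.56 ± 0.11, so CCNE2 was higher in both knockdown lines. Low against high glucose lowered 34 and raised 1 in shControl cells (17.3% and 13.9% of all genes), with CCNE2 at -1.44 ± 0.11 and the GINS subunit GINS4 at -1.02 ± 0.11. With 5FU 8 rose and 3 fell against DMSO (7.17% and 4.29% of all genes), with CCNE2 at 1.43 ± 0.09 and its paralog CCNE1 at 0.95 ± 0.08. In hypoxic against normal shControl cells 41 were lower and 1 higher (26.7% and 21.1% of all genes), with CCNE2 at -1.57 ± 0.17 and ORC5 at -1.40 ± 0.14. In hypoxia 3 were higher and 0 lower in shCDK8 than in shControl cells (4.81% and 2.49% of all genes), a share near that of all genes, with CCNE2 at 1.57 ± 0.27 and E2F3 at 0.82 ± 0.09, and 7 were higher and 0 lower in shCDK8 cells when set against shCDK19 cells (7.26% and 5.09%), with CCNE2 at 2.63 ± 0.27 and CCNE1 at 1.07 ± 0.20. Both cyclin E genes were thus higher in shCDK8 than in shCDK19 cells in hypoxia, as FAM111B and CLSPN were. The 1 gene of the list that rose in low against high glucose (0.93 ± 0.08) and in hypoxic against normal shControl cells (0.67 ± 0.14) was POLD4, a small subunit of polymerase delta, which is named after its values were seen.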

How the data were processed

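Gene expression was measured in HCT116 lines on 35 Affymetrix HuGene whole-transcript arrays. The deposited values are log2 signals, 1 per transcript cluster, made by the authors. Per the submitters' processing notes the software was Partek, with its version, background correction and normalization not given. The deposited log2 values run from a floor of 4.32 (20 on the linear scale) to a ceiling of 14.29 (20000), so changes at either end are compressed. Array data carry no read depth, and the number of arrays limits the precision.

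Of 32321 clusters, 19158 carried 1 gene symbol in the platform annotation, 1388 several and 11775 none. For the 637 genes with more than 1 such cluster the one with the highest mean was kept, which left 18404 genes. Linear models were fitted with limma 3.58.1 in R 4.3.3 within each set of cultures (9 arrays in normal growth, 8 with 5FU or DMSO, 12 in low or high glucose and 6 in hypoxia). All 35 arrays entered 1 fit for hypoxia against normal growth and for the differences between effects. Errors are standard errors of the log2 change. Tests were two-sided, with p-values adjusted by Benjamini-Hochberg over all genes and a threshold of 0.05. Figures were drawn with matplotlib 3.10.9 and the data joined with pandas 2.3.3 and, in R, data.table (version 1.17.8). The fits were tested on simulated data.

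Groups were taken from the deposited labels. The members, roles and further gene list were chosen with earlier results of these data known. Named in each comparison are up to 4 members per direction, those past the threshold whose changes were largest, or the 2 with the smallest p where none passed. In each role the 2 with the widest range of group means are given array by array. From the further list the 2 largest changes of a comparison are named at most, apart from 1 gene marked as chosen later. Members that did not pass or went against the majority may be named too. Alternatives were another scaling of the arrays (medians subtracted, or quantile), leaving out genes not above 6 (log2) on 2 arrays, a trended robust estimate of the spread, the unmoderated one-way analysis of variance that the design text names, the mean of all clusters of a gene, the replicate number as a block, all 35 arrays in 1 fit, and leaving out each array in turn.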

Additional observations from a re-analysis of the deposited data

Results flagged for a closer look

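The change of a knockdown line against shControl cells differed between a stress and normal growth, by limma's test of the difference itself over all 35 arrays, for the members that follow. All values are differences of log2 changes, stress minus normal growth. Those of 1 line subtract the same normal growth change, and the sets of cultures cannot be told apart from the conditions.

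For shCDK8 with 5FU these were the primase subunit PRIM1 (1.19), POLE2 (0.96), TIPIN (0.88) and RFC3 (0.80). For shCDK8 in low glucose they were MCM2 (0.97), PRIM1 (0.93), BRCA1 (0.86) and MCM5 (0.83). For shCDK8 in hypoxia they were FAM111B (1.53), CLSPN (1.33), TIPIN (0.99) and UNG (0.96). Of the 4 members named in hypoxia, TIPIN was also named with 5FU. The lists are cut at 4 members, and the largest difference among polymerase members in hypoxia was 0.92, little below that of UNG. Whether the differences with 5FU and in hypoxia differ from each other was not tested.

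For shCDK19 with 5FU the difference was 0.58 for E2F8 and -0.55 for GINS1. In low glucose it was 1.10 for FAM111B, 0.72 for MCM4, 0.66 for DTL and 0.62 for MCM5. In hypoxia it was -0.59 for FEN1 and -0.52 for MCM5, and neither passed with array medians subtracted. The shControl hypoxia arrays, on which the hypoxic values rest, had 9.24 and 9.55 as their means over the members.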

How the results depend on the processing

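Under alternatives other than leaving out an array, 135 counts of called members lay within 1.5 times the count reported and 40 did not, and no named member changed sign past the threshold. In each case below the cause was not tested. The shares of all genes given earlier belong to the fits reported there and not to these alternatives, whose shares are not given. With array medians subtracted, shCDK19 against shControl cells gave 1 member in normal growth, shCDK8 against shControl cells 6 in low glucose, hypoxia against normal growth 7 in shCDK8 cells, and the difference of the shCDK19 change from normal growth 0 with 5FU, 4 in low glucose and 0 in hypoxia. With quantile normalization, shCDK8 against shControl cells gave 6 in hypoxia, shCDK19 against shControl cells 9 in normal growth and 2 with 5FU, shCDK8 against shCDK19 cells 11 with 5FU, 5FU against DMSO 15, and the shCDK19 difference in hypoxia 8. Without dim genes shCDK8 in hypoxia gave 5 and shCDK19 with 5FU 3. With the trended robust spread, shCDK8 gave 6 in hypoxia and 1 with 5FU, shCDK19 7 in normal growth and 6 with 5FU, shCDK8 against shCDK19 cells 14 with 5FU, and 5FU against DMSO 18. With unmoderated variances, shCDK8 gave 0 in hypoxia and 1 with 5FU, shCDK19 1 in normal growth, shCDK8 against shCDK19 cells 3 in hypoxia and 1 with 5FU, 5FU against DMSO 3, and the shCDK19 difference with 5FU 1. In 1 fit of all 35 arrays, shCDK8 gave 20 in hypoxia, 1 with 5FU and 5 in low glucose, shCDK19 21 in hypoxia and 6 with 5FU, and shCDK8 against shCDK19 cells 29 in hypoxia and 11 with 5FU. The mean of all clusters of a gene moved no count past 1.5 times. Same-numbered arrays correlated between -0.62 and 0.41. With 2 or 3 arrays per group this range cannot show whether the replicate numbers pair the arrays. With the replicate number as a block, shCDK8 gave 0 in hypoxia, shCDK19 0 in normal growth, shCDK8 against shCDK19 cells 1 in hypoxia and 0 with 5FU, 5FU against DMSO 5, and the shCDK19 difference with 5FU 1. Leaving out 1 array at a time gave 0 to 16 members for shCDK8 and 0 to 9 for shCDK19 in hypoxia, 0 to 1 for shCDK19 in normal growth, 6 to 9 for shCDK8 in low glucose, and 0 throughout for shCDK8 against shCDK19 cells in hypoxia and with 5FU. It gave 1 to 17 for 5FU against DMSO, 4 to 28 for hypoxia against normal growth in shCDK8 cells, 21 to 38 for the shCDK8 difference in hypoxia, and 0 to 1 with 5FU, 7 to 19 in low glucose and 1 to 6 in hypoxia for the shCDK19 difference. Under the alternatives that kept all arrays 601 values of named members kept direction and side of the threshold, 61 lost the call and 10 gained it.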
